A study of Mus musculus with 18 samples.

Results

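Lipochondrocytes are cartilage cells of the mouse ear that hold a large lipid vacuole while they sit in an elastic, collagen-rich matrix. The comparison described here sets their transcriptome at postnatal day 33 (P33) against that at postnatal day 21 (P21). RNA sequencing had been done on 3 P33 and 3 P21 libraries, 6 of the 18 in the series. Of 46983 genes listed, 11332 reached at least 1 FPKM (fragments per kilobase, a level scaled for gene length and library size) in at least 3 of these 6 libraries, and these are the genes compared. Of them, 115 passed only because all 3 libraries of 1 stage reached 1 FPKM while no library of the other did, and such genes had to differ. The 192 called genes include 20 of them.

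All 6 libraries came from Wnt1-Cre2;TdTomato mice on a C57BL/6 background, in which Wnt1-Cre2 switches on a red reporter in the neural crest lineage. At both ages the ear cartilage plate was taken with care to leave adipocytes behind, digested in collagenase and spun, and RNA came from the cells that floated, so the reporter was not used to select them. The series also holds sorted TdTomato-high ear cells of the same mice at P8, P10 and P13 and buoyant adipocytes of P33 inguinal fat, with 3 libraries each. Whether each library was 1 animal or a pool is not stated in the labels, and p-values therefore measure only how far these libraries spread. In such bulk samples, fewer cells of a type and less RNA per cell cannot be told apart.

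Fat is built in a cell from acetyl units that cytosolic enzymes join into fatty acids, which are then esterified to triglyceride and stored in coated droplets. Sterols are made from the same acetyl units by the mevalonate pathway, and both sets of enzymes are known targets of the SREBP transcription factors. Ear cartilage is elastic cartilage: its chondrocytes are known for secreting collagen II with collagens IX and XI, aggrecan, and elastin that lysyl oxidase crosslinks into fibres.

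The P33 libraries had 15271886 to 20146082 total reads and alignment rates of 73.19% to 76.81%, against 12804474 to 22494553 reads and 75.54% to 79.37% in the P21 libraries. P33 replicate 3 stood apart from its group. Across genes its log2 values correlated at 0.916 and 0.931 with the other P33 libraries, which correlated at 0.973 with each other. With P21 replicates 1, 2 and 3 its values correlated at 0.920, 0.938 and 0.939. The libraries closest to P33 replicate 3 were thus P21 replicates 2 and 3, while the other P33 libraries were closest to each other. The 8 lipochondrocyte markers, led by Cytl1, summed to 23920 to 25795 FPKM in P33 and 30021 to 32331 FPKM in P21 libraries, with Matn1 at 0 in all 6. That sum mixes opposite changes. Eln averaged 2396 FPKM in P33 and 12004 FPKM in P21 libraries, while Cytl1, which was not called, averaged 18537 and 12356 FPKM. The 6 adipocyte markers, led by Fabp4, summed to 6.21 to 6.93 FPKM in P33 and 15.6 to 22.6 FPKM in P21 libraries. Lep was at 0, and the sum was at least 79806 FPKM in each adipocyte library. Macrophage markers summed to 39.2 to 71.9 FPKM in P33 and 21.2 to 36.3 FPKM in P21 libraries, which do not overlap. Keratinocyte markers were also without overlap, at 11.3 to 16.4 FPKM in P33 and 4.96 to 8.89 FPKM in P21 libraries. Their largest term, Perp, had 7.34 to 10.98 FPKM in P33 and 1.59 to 3.06 FPKM in P21 libraries. Apart from Perp, the keratinocyte sums overlapped between stages. Sebocyte markers, of a skin cell that makes lipid, did not overlap between stages. They summed to 4.2 to 5.47 FPKM in P33 and 6.29 to 10.02 FPKM in P21 libraries. Soat1 was the largest of the 8 and the only one past the level filter. Skeletal muscle markers ranged widely, from 30.9 to 248 FPKM in P33 and 96.9 to 660 FPKM in P21 libraries. Fibroblast and perichondrium markers spanned 5333 to 9520 FPKM in P33 and 5518 to 10007 FPKM in P21 libraries. The part of these other cells in the results below was not tested.

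At P33, 44 genes were higher than at P21 (0.388% of the genes tested) and 148 were lower (1.31%), by limma at adjusted p below 0.05. The 192 called genes are 1.69% of those tested. The 10 largest falls named by the rule held the matrix genes Lox, Eln and Col9a2 and the lipid synthesis genes Aacs, Mogat1 and Thrsp. Among the 10 largest rises were secreted proteins such as Grem1, Myoc and Igf1. Of the called genes, 37 rose and 127 fell by more than 1 on the log2(FPKM + 1) scale, on which the median over all genes was -0.04. In 24.4% of all genes the 3 P33 values and the 3 P21 values did not overlap, with P33 higher in 8.58% and lower in 15.8%. At unadjusted p below 0.05 there were 1992 genes. The number of calls rests on few libraries. It was 372 without P33 replicate 3, 60 without P33 replicate 2, 55 without P21 replicate 3, 13 without P21 replicate 1, 8 without P33 replicate 1 and 4 without P21 replicate 2. All 192 kept their sign in each of these fits, which was fixed in advance because their P33 and P21 values do not overlap. Of 99 called genes that were followed one by one, Grem1 and Pdzk1ip1 alone were called in all 6.

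**Figure D1:**
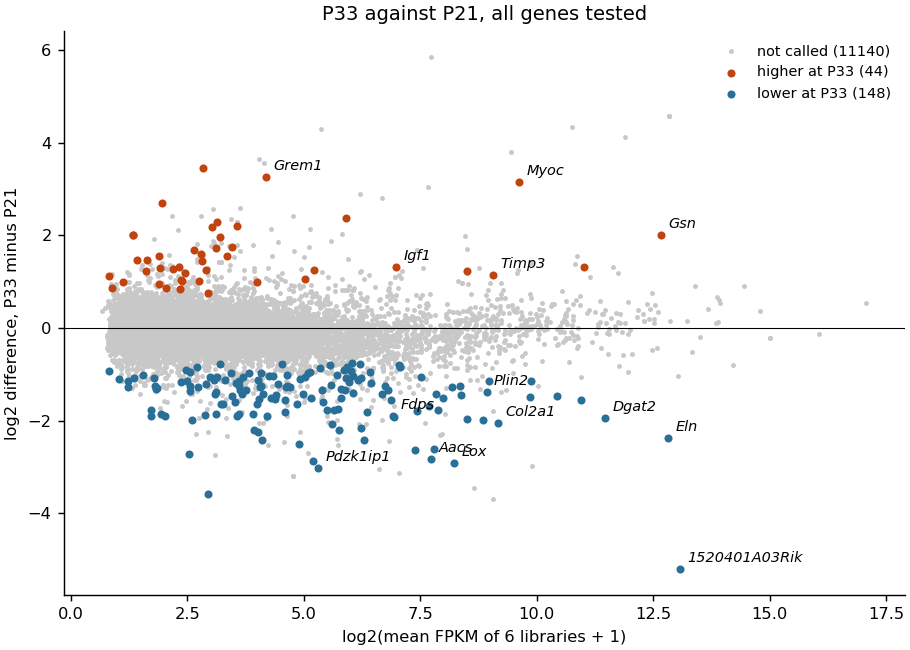
Each point is 1 of the 11332 genes tested, with its mean level over the 6 libraries, as log2(FPKM + 1), on the horizontal axis and the log2 difference of P33 minus P21 on the vertical axis. The 44 genes called higher at P33 and the 148 called lower are coloured, and 1520401A03Rik lies lowest at -5.21.

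Fatty acid synthesis held 7 of the 148 falls and none of the rises. Of 20 listed genes 17 were tested, and the median difference of the 17 was -1.26. The other 10 were not called, but all 17 differences were below 0, and in 14 of the 17 the 2 stages did not overlap. Fasn (ENSMUSG00000025153.9, chromosome 11:120805846 to 120824547 of GRCm38), the synthase that builds palmitate, had 43.7, 60.9 and 43.7 FPKM in P33 libraries, against 243, 212 and 127 FPKM in P21 libraries. Every P33 value lay below every P21 value, and the difference was -1.92 ± 0.28 (SE; limma, adjusted p = 0.0277). Acly, which cleaves citrate to cytosolic acetyl-CoA, averaged 17.5 ± 6.06 FPKM in P33 and 78.4 ± 32.3 FPKM in P21 libraries (SD, n = 3 each). Acss2, which makes acetyl-CoA from acetate, averaged 6.87 ± 1.72 FPKM in P33 and 28.3 ± 6.36 FPKM in P21 libraries. Both fell, by 2.07 and 1.89 on the log2 scale. Acly was close to the threshold (limma, adjusted p = 0.0461). It was called in 0 of the 6 fits that leave out a library, and Acss2 in 3. The citrate carrier Slc25a1 fell by 1.27 and the elongase Elovl5 by 1.03.

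Thrsp, a small protein that promotes lipogenesis, showed the largest fall of the list: it had 2.94, 7.71 and 3.30 FPKM in P33 libraries, against 31.7, 32.3 and 19.5 FPKM in P21 libraries. The difference was -2.41 ± 0.35 (SE; limma, adjusted p = 0.0273). The most abundant gene of the list was not called. Scd1, the desaturase that makes oleate, had 3045, 3852 and 1492 FPKM in P33 libraries, against 6159, 5242 and 3944 FPKM in P21 libraries. Its stages did not overlap, and the difference was -0.95 ± 0.39 (SE; limma, adjusted p = 0.275). Srebf1, the transcription factor of this pathway, averaged 101 FPKM in P33 and 128 FPKM in P21 libraries and was not called.

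Cholesterol synthesis held another 7 falls and no rise. All 23 listed genes were tested, with a median difference of -1.18. Of these, 22 differences were below 0 and 19 genes had stages that did not overlap. Fdps, which makes farnesyl pyrophosphate, had 43.5, 68.9 and 40.2 FPKM in P33 libraries, against 194, 205 and 167 FPKM in P21 libraries. It fell by 1.91 ± 0.23 (SE; limma, adjusted p = 0.0193), and the highest P33 library reached less than the lowest P21 library. Pmvk, a kinase of the mevalonate pathway, had 20.02, 24.0 and 20.03 FPKM in P33 libraries, against 87.1, 82.2 and 60.1 FPKM in P21 libraries. It fell by 1.78 ± 0.19 (SE; limma, adjusted p = 0.0133). The decarboxylase Mvd averaged 6.75 ± 1.40 FPKM in P33 and 23.1 ± 1.83 FPKM in P21 libraries, and fell by 1.65.

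The other 4 called genes act in squalene formation or later sterol steps. Fdft1, the squalene synthase, averaged 10.5 FPKM in P33 and 29.6 FPKM in P21 libraries. The sterol reductases Tm7sf2 and Dhcr7 fell by 1.89 and 1.27, and the dehydrogenase Nsdhl fell by 1.46. Idi1 and Insig1 differed by -1.86 and -1.53 and were not called. Ebp was the member above 0, at 0.15. Outside the list, and chosen after its values were seen, Acat2, which condenses acetyl-CoA for the mevalonate pathway, averaged 18.4 ± 4.56 FPKM in P33 and 87.4 ± 15.5 FPKM in P21 libraries.

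The 14 called genes of the fatty acid and cholesterol lists differ in how far they rest on single libraries. With 1 library left out, 12 were still called without P33 replicate 3, 6 without P33 replicate 2 and 4 without P21 replicate 3. Their adjusted p ranged from 0.065 to 0.167 without P33 replicate 1, from 0.058 to 0.149 without P21 replicate 1 and from 0.103 to 0.230 without P21 replicate 2, so that none was called there. All 14 kept their sign in every one of these fits, as genes whose stages do not overlap must. Fdps and Tm7sf2 share exon sequence with Gm43738 and Vps51 on their strand and Acsl3 with Utp14b, and their values are uncertain to that extent.

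RefSeq promoters (GRCm38.p6) were at hand for 12 of the 14 called genes, and the motif CCAAT, or ATTGG on the other strand, was searched in the 250 bases before the start. NF-Y, the factor that binds this box, is known to act with SREBPs at lipid gene promoters. The box was found in 11 of the 12 genes and not in Acly. Its share was 37.5% of all 27025 genes with a promoter at hand and 40.5% of the 7968 tested genes among them. The sterol element TCACNCCAC was found in none of the 12 and in 1.2% of all genes. It is too rare for its absence from 12 genes to set them apart. Members of the lists that were not called were not counted, and any part of either motif in the falls was not tested. A match is a string of letters and not a measured binding site. The 150 bases before the start are shown for 4 genes that hold the box more than once there, with each copy in capitals. Fasn lies at chr11:120824548-120824697 on the minus strand, with copies starting 90, 62 and 59 bases before the start, the last 2 overlapping. Thrsp lies at chr7:97417551-97417700 on the minus strand, with copies at 79 and 52 bases. GENCODE places the start of Thrsp at 97417730, so this stretch precedes the RefSeq start but lies inside the GENCODE gene. Mvd lies at chr8:122443423-122443572 on the minus strand, with copies at 60 and 27 bases. Nsdhl lies at chrX:72918371-72918520 on the plus strand, with copies at 109 and 20 bases.
Fasn: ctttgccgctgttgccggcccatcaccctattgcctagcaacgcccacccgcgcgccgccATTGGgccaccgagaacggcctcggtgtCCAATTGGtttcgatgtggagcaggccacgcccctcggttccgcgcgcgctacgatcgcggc
Thrsp: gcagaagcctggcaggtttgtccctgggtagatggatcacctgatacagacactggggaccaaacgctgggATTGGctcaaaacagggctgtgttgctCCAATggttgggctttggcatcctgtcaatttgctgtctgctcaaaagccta
Mvd: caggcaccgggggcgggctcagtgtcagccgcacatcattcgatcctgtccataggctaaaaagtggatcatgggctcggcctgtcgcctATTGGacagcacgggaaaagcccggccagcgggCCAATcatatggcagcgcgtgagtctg
Nsdhl: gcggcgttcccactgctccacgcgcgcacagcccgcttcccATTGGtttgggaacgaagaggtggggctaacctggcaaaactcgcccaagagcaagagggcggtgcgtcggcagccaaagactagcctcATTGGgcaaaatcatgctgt

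In triglyceride synthesis the genes that fell were Dgat2, Mogat1 and Gpd1. Of 14 listed genes 13 were tested with a median of -0.50. Dgat2 (ENSMUSG00000030747.4, chromosome 7:99153658 to 99182719), the last enzyme of the pathway, had 1062, 1629.9 and 883 FPKM in P33 libraries, against 4763, 4929.9 and 3706 FPKM in P21 libraries. The stages were far apart, and the difference was -1.94 ± 0.28 (SE; limma, adjusted p = 0.0270). Mogat1, which acylates monoglyceride, had 8.98, 11.2 and 4.18 FPKM in P33 libraries, against 60.0, 56.2 and 31.9 FPKM in P21 libraries, and fell by 2.50 ± 0.38 (SE; limma, adjusted p = 0.0314). Gpd1, which supplies the glycerol backbone, averaged 6.14 ± 1.53 FPKM in P33 and 15.1 ± 1.07 FPKM in P21 libraries. Dgat1, the other enzyme of the last step, stood at 13.0 FPKM in P33 and 12.5 FPKM in P21 libraries. The acyltransferases Agpat1 and Gpam differed by -0.15 and -0.17.

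The droplet coat gene Plin2 fell, while most other droplet and lipolysis genes were not called. Plin2 had 251, 328 and 226 FPKM in P33 libraries, against 708, 807 and 583 FPKM in P21 libraries. No P33 value reached the lowest P21 value, and the difference was -1.38 ± 0.22 (SE; limma, adjusted p = 0.0344). It was 1 of 8 tested droplet coat genes, whose median was -0.22. Cidea, which enlarges droplets, had 76.6, 83.4 and 57.7 FPKM in P33 libraries, against 93.3, 139.8 and 133 FPKM in P21 libraries, and was not called (limma, adjusted p = 0.170). In lipolysis 10 genes were tested and their median was 0.23. Adora1, an adenosine receptor that restrains lipolysis in fat cells, rose to 3.89 ± 0.80 FPKM in P33 libraries, against 1.51 ± 0.10 FPKM in P21 libraries (SD, n = 3 each). G0s2, which inhibits the triglyceride lipase, had 2464, 2985 and 3368 FPKM in P33 libraries, against 3923, 4641 and 4603 FPKM in P21 libraries. Its difference of -0.59 was not called (limma, adjusted p = 0.230). The lipase Pnpla2 itself averaged 16 FPKM in P33 and 12.6 FPKM in P21 libraries.

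Among 14 tested fatty acid uptake genes, with a median of -0.28, 3 fell and all 3 were at low levels, 1 of them, Cd36, having passed the level filter only through P21. The fatty acid transporter Cd36 had 0.71, 0.79 and 0.48 FPKM in P33 libraries, against 7.71, 5.19 and 3.47 FPKM in P21 libraries. The fatty acid binding protein Fabp4 had 5.42, 5.09 and 3.67 FPKM in P33 libraries, against 13.2, 18.7 and 17.3 FPKM in P21 libraries. Angptl4, an inhibitor of lipoprotein lipase, averaged 2.51 ± 0.26 FPKM in P33 and 6.80 ± 1.03 FPKM in P21 libraries. Cd36 and Fabp4 are also highly expressed in adipocytes, where they averaged 2271 and 33501 FPKM here. The summed adipocyte markers were lower at P33, but Fabp4 made up most of that sum. In P21 libraries the whole sum was 15.6, 22.6 and 20.2 FPKM, so it largely repeats the Fabp4 fall. The part of adipocytes in these falls was not tested. In fatty acid oxidation 15 genes were tested and only Echs1, a hydratase of that pathway, was called: it averaged 22.9 FPKM in P33 and 44.9 FPKM in P21 libraries. The 3 called triglyceride genes were all called without P33 replicate 3, with 1 called without P33 replicate 2, and adjusted p ran from 0.053 to 0.203 over the other 4 fits with a library left out. The 3 uptake genes were called without P33 replicate 3, Cd36 also without P21 replicate 3, and adjusted p ran from 0.055 to 0.144 without each of the other 4 libraries. Plin2 was called only without P33 replicate 3 and at adjusted p of 0.063 to 0.206 in the other 5 fits. Adora1 and Echs1 were also called only without P33 replicate 3.

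**Figure D2:**
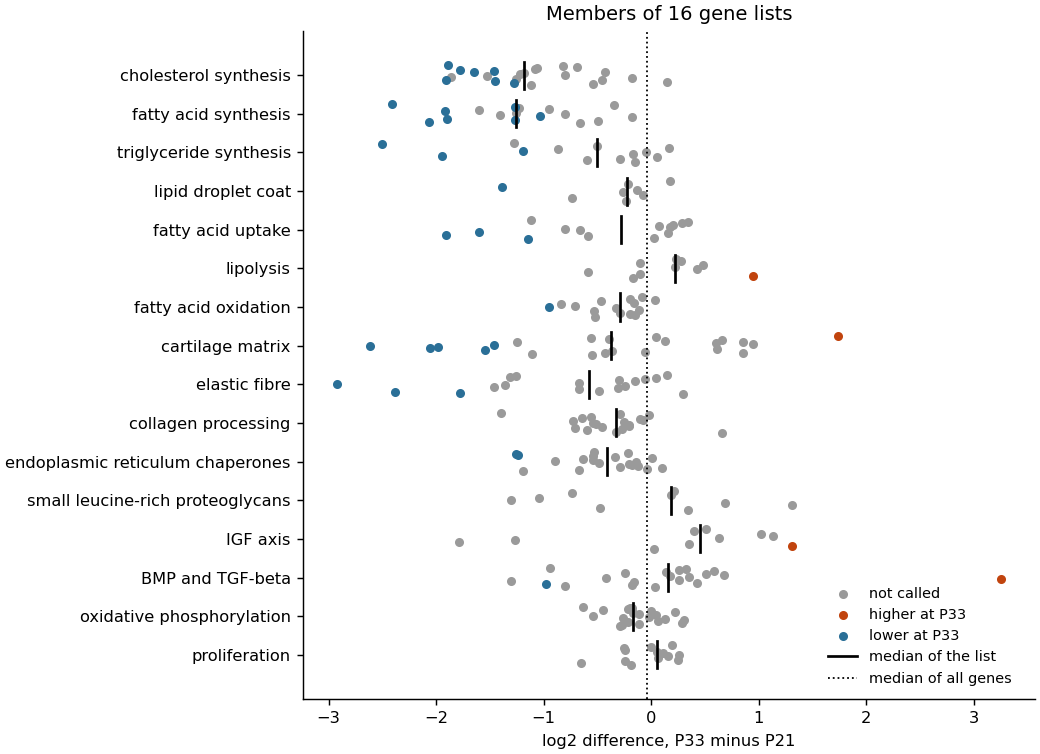
Each point is a tested member of 1 of 16 gene lists, placed by its log2 difference of P33 minus P21, and coloured where it was called. Black bars give the list medians, which lie at -1.18 for cholesterol synthesis and -1.26 for fatty acid synthesis, beside -0.04 over all genes (dotted line).

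Collagen II, the 3 collagen IX genes and 1 gene of collagen XI were lower at P33. Of 24 listed cartilage matrix genes 22 were tested, 5 fell and 1 rose, with a median of -0.37. Col2a1 (ENSMUSG00000022483.16, chromosome 15:97975602 to 98004695), the main cartilage collagen, had 236, 245 and 189 FPKM in P33 libraries, against 1003, 935 and 850.1 FPKM in P21 libraries. The difference was -2.06 ± 0.18 (SE; limma, adjusted p = 0.0103). Col9a2 had 79.3, 71.2 and 36.0 FPKM in P33 libraries, against 488, 382 and 261 FPKM in P21 libraries. It fell by 2.61 ± 0.36 (SE; limma, adjusted p = 0.0250), the largest fall of the list. The other collagen IX chains, Col9a1 and Col9a3, fell by 1.98 and 1.46, and Col11a2 by 1.55. Col11a1 averaged 178 FPKM in P33 and 229.8 FPKM in P21 libraries and was not called.

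The other cartilage genes, Vit apart, were not called. Cytl1, a small secreted cartilage protein and the most abundant of the list, had 18569, 16368 and 20673 FPKM in P33 libraries, against 9542, 12539 and 14987 FPKM in P21 libraries. Its stages did not overlap, yet the difference of 0.60 ± 0.26 was not called (limma, adjusted p = 0.301). Acan, the core protein of aggrecan, had 134, 108 and 53.1 FPKM in P33 libraries, against 268, 212 and 137 FPKM in P21 libraries, and was not called either (limma, adjusted p = 0.229). Vit, a matrix protein with von Willebrand domains, rose to 13.1, 9.60 and 14.1 FPKM in P33 libraries, against 3.25, 2.93 and 2.66 FPKM in P21 libraries. Comp and Matn3 differed by 0.95 and 0.66 without a call. The chondrocyte transcription factor Sox9 had 102, 174 and 85.2 FPKM in P33 libraries, against 218, 223 and 178 FPKM in P21 libraries. Its difference of -0.83 was not called (limma, adjusted p = 0.204), and 0 of the 8 tested factors of its list were called, with 2 at unadjusted p below 0.05 and a median of -0.42.

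The elastic fibre genes that fell were elastin, its crosslinking enzyme and a protein that brings both together. Of 18 tested genes 3 fell and 15 were below 0, with a median of -0.58. Eln (ENSMUSG00000029675.12, chromosome 5:134702593 to 134747323) had 2366, 3311 and 1510.3 FPKM in P33 libraries, against 14160.2, 11787 and 10065 FPKM in P21 libraries. P33 replicate 3 was the lowest, and the highest P33 value was under the lowest P21 value. The difference was -2.38 ± 0.33 (SE; limma, adjusted p = 0.0250). Lox, the crosslinking oxidase, had 78.7, 85.5 and 44.6 FPKM in P33 libraries, against 703, 484 and 402 FPKM in P21 libraries. It fell by 2.92 ± 0.32 (SE; limma, adjusted p = 0.0143). Efemp2, or fibulin-4, which ties lysyl oxidase to elastin, had 105, 111 and 97.3 FPKM in P33 libraries, against 409, 382 and 299 FPKM in P21 libraries, and fell by 1.78 ± 0.18 (SE; limma, adjusted p = 0.0117). The microfibril genes Fbn1 and Mfap5 differed by -0.25 and 0.14, and the related oxidases Loxl1 and Loxl2 by -0.67 and -0.15, none of them called.

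The 8 called collagen and elastic fibre genes were all called without P33 replicate 3, 5 of them without P33 replicate 2 and 3 without P21 replicate 3. Their adjusted p ranged from 0.065 to 0.124 without P33 replicate 1, from 0.052 to 0.110 without P21 replicate 1 and from 0.090 to 0.195 without P21 replicate 2. Vit was at adjusted p of 0.065, 0.055 and 0.10 in these 3 fits and called in the other 3. Exons of Lox, Eln, Efemp2 and Col9a3 are overlapped from the other strand by AC161119.1, Gm30003, Mus81 and Tcfl5, and without a stated strand those reads cannot be told apart.

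Genes that process collagen were also mostly below 0 but not called. Of 19 tested, 18 were below 0 and the median was -0.33. By limma 0 were called, with 8 lower at unadjusted p below 0.05. Serpinh1, the collagen chaperone, averaged 87.8 FPKM in P33 and 235 FPKM in P21 libraries. Among 20 tested endoplasmic reticulum chaperones, with a median of -0.41, the disulfide isomerases Pdia4 and Pdia6 fell by 1.23 and 1.25. Pdia4 had 25.5, 30.9 and 25.9 FPKM in P33 libraries, against 73.2, 66.6 and 58.0 FPKM in P21 libraries. Pdia4 was called only without P33 replicate 3 among the 6 fits that leave out a library, and Pdia6 in none. Small leucine-rich proteoglycans differed in both directions: 0 of 9 were called, 2 were higher and 4 lower at unadjusted p below 0.05, and the median was 0.19. Decorin (Dcn) averaged 4539.6 FPKM in P33 and 1819 FPKM in P21 libraries, lumican (Lum) 165 FPKM in P33 and 403 FPKM in P21 libraries. Chondroitin sulfate synthesis had 0 of 20 called, with 4 lower at unadjusted p below 0.05.

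The largest rises named by the rule included Grem1, Myoc and Gsn. Grem1 (ENSMUSG00000074934.3, chromosome 2:113746164 to 113758646), a secreted inhibitor of BMP signals, had 39.8, 32.2 and 24.3 FPKM in P33 libraries, against 2.62, 2.52 and 2.08 FPKM in P21 libraries. Its difference of 3.26 ± 0.20 was the largest rise named by the rule (SE; limma, adjusted p = 0.00594), and it was called in all 6 fits that leave out a library. Myoc, or myocilin, a secreted glycoprotein known from the eye, had 1158, 1574 and 1475 FPKM in P33 libraries, against 105, 141 and 252 FPKM in P21 libraries. It rose by 3.16 ± 0.33 (SE; limma, adjusted p = 0.0133). Gsn, or gelsolin, which severs actin filaments and also has a secreted form, had 9565, 11981 and 9797 FPKM in P33 libraries, against 2035, 3083 and 2736 FPKM in P21 libraries. It rose by 2.01 ± 0.24 (SE; limma, adjusted p = 0.0186) and was among the most abundant genes that changed.

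Thbs4, a thrombospondin of tendon and cartilage, had 137, 54.4 and 108 FPKM in P33 libraries, against 15.1, 13.9 and 23.6 FPKM in P21 libraries. P33 replicate 2 was the lowest of its stage and still above all P21 libraries, and the difference was 2.38 ± 0.37 (SE; limma, adjusted p = 0.0343). Timp3, an inhibitor of metalloproteinases that binds to the matrix, had 751, 756 and 697 FPKM in P33 libraries, against 295, 311 and 398 FPKM in P21 libraries. It rose by 1.14 ± 0.18 (SE; limma, adjusted p = 0.0350). Its relative Timp1 went the other way: it had 47.4, 43.2 and 43.4 FPKM in P33 libraries, against 357, 284 and 221 FPKM in P21 libraries, and fell by 2.63 ± 0.20 (SE; limma, adjusted p = 0.00789). Mmp3, a protease that both inhibit, fell to 1.21 ± 0.31 FPKM in P33 libraries, against 3.68 ± 0.61 FPKM in P21 libraries. Timp2 and Timp4 differed by 0.48 and -0.74 and were not called. Abi3bp and Fbln7, matrix proteins chosen after their values were seen, rose by 1.23 and 1.02. Timp1 was called in 4 of the 6 fits with a library left out, and Mmp3, Abi3bp and Fbln7 only without P33 replicate 3.

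Less abundant transcripts completed the 10 largest rises. Tmem213, a membrane protein, averaged 13.6 ± 1.46 FPKM in P33 and 2.04 ± 0.77 FPKM in P21 libraries (SD, n = 3 each). Aldh1a1, an enzyme of retinoic acid synthesis, averaged 13.8 ± 5.70 FPKM in P33 and 2.65 ± 0.53 FPKM in P21 libraries. Prrx2, a homeobox factor of craniofacial mesenchyme, averaged 16.03 ± 4.71 FPKM in P33 and 4.003 ± 0.95 FPKM in P21 libraries. Aldh1a1 and Prrx2 were both highest in P33 replicate 3. Cfb, complement factor B, averaged 14.2 ± 4.79 FPKM in P33 and 4.07 ± 0.92 FPKM in P21 libraries, and its exons are shared with Gm20547. Macrophages are a known source of complement; their summed markers were higher at P33 as given above, with 0 of 7 tested members called and 5 higher at unadjusted p below 0.05, and their part in the Cfb rise was not tested. Perp, a desmosome protein on the keratinocyte list, rose to 9.38 ± 1.86 FPKM in P33 libraries, against 2.46 ± 0.77 FPKM in P21 libraries, and was the largest term in that list's sum. Only 2 of 12 keratinocyte markers reached the level to be tested.

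**Figure D3:**
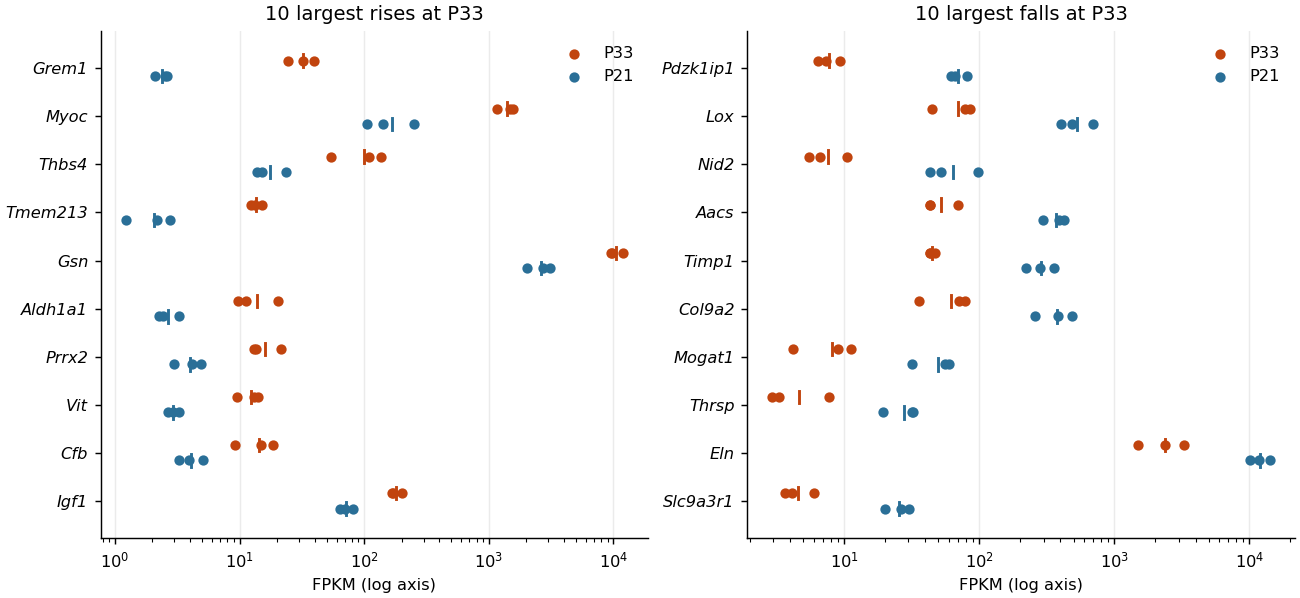
FPKM of the 10 largest rises (left) and 10 largest falls (right) named by the rule, on a log axis, with 1 point per library and a bar at each mean, P33 above P21 for each gene. The rule took only genes whose 3 P33 and 3 P21 values did not overlap. Grem1, for example, had 24.3 to 39.8 FPKM in P33 and 2.08 to 2.62 FPKM in P21 libraries.

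The growth factor lists held 4 calls: Igf1 and Grem1 were higher at P33, and Bmper and Mest lower. Igf1 (ENSMUSG00000020053.18, chromosome 10:87858265 to 87937042), the growth factor that mediates growth hormone action, had 171, 167 and 199.9 FPKM in P33 libraries, against 70.4, 64.0 and 80.7 FPKM in P21 libraries. It rose by 1.31 ± 0.16 (SE; limma, adjusted p = 0.0193), as the only called member of 10 tested IGF genes, whose median was 0.45. The binding proteins Igfbp5 and Igfbp2 differed by 1.14 and -1.78 and were not called. The growth hormone receptor Ghr stood at 27.9 FPKM in P33 and 27.3 FPKM in P21 libraries. Among 20 tested BMP and TGF-beta genes, with a median of 0.15, Grem1 rose and Bmper fell. Bmper, a secreted BMP modulator, had 20.8, 23.5 and 21.1 FPKM in P33 libraries, against 49.0, 43.6 and 39.8 FPKM in P21 libraries, and fell by 0.98 ± 0.14 (SE; limma, adjusted p = 0.0277). The BMP targets Id1, Id2 and Id3 differed by -0.42, 0.35 and 0.17. Of 12 tested imprinted growth genes only Mest fell, averaging 7.36 ± 0.34 FPKM in P33 and 23.4 ± 2.20 FPKM in P21 libraries. Igf2 and H19 overlapped between stages, and Dlk1 had 0.59, 0.72 and 2.39 FPKM in P33 libraries, against 2.12, 1.77 and 2.54 FPKM in P21 libraries.

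The 10 largest rises were all called without P33 replicate 3, 5 without P33 replicate 2 and 4 without P21 replicate 3, and Grem1 alone without P33 replicate 1, P21 replicate 1 or P21 replicate 2. Igf1, Timp3 and Gsn each had adjusted p above 0.05 in 5 of the 6 fits, with highest values of 0.143, 0.230 and 0.114 without P21 replicate 2. Bmper and Perp were called only without P33 replicate 3, and Mest in 4 of the 6 fits. Myocos, Atp6v0a4 and Syn3 overlap exons of Myoc, Tmem213 and Timp3 on the other strand. Exons of these other named genes are overlapped in the same way: Acss2, Fdft1, Mogat1, Gpd1, Nid2, Mest, Pdia6, Echs1, Adora1, Bhlhe41, Zfp36, Tubb4b, Penk, Fxyd3, H19 and Igf2.

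The 10 largest falls held genes of other kinds. Pdzk1ip1, a small membrane protein that binds PDZ domains, had 7.40, 9.29 and 6.42 FPKM in P33 libraries, against 81.1, 62.2 and 66.0 FPKM in P21 libraries. It fell by 3.03 ± 0.18 (SE; limma, adjusted p = 0.00594), was called in all 6 fits with a library left out, and had averaged 5.04, 5.8 and 10.3 FPKM at P8, P10 and P13. Aacs, which activates acetoacetate in the cytosol for lipid synthesis, had 43.3, 70.1 and 43.4 FPKM in P33 libraries, against 427, 390.5 and 297 FPKM in P21 libraries. It fell by 2.83 ± 0.25 (SE; limma, adjusted p = 0.0103). Nid2, or nidogen-2 of basement membranes, had 6.69, 10.5 and 5.49 FPKM in P33 libraries, against 97.5, 51.8 and 43.4 FPKM in P21 libraries. Slc9a3r1, a PDZ scaffold that links membrane proteins to the cytoskeleton, averaged 4.59 ± 1.27 FPKM in P33 and 25.6 ± 5.19 FPKM in P21 libraries. The 10 falls were all called without P33 replicate 3, with 8 called without P33 replicate 2, 6 without P21 replicate 3, 2 without P21 replicate 1, and Pdzk1ip1 alone without P33 replicate 1 or P21 replicate 2.

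The largest fall of all was outside the naming rule because of its symbol, and was chosen after its values were seen. 1520401A03Rik (ENSMUSG00000043747.12, chromosome 17:23704488 to 23722783, minus strand), annotated as protein-coding and without exon overlap, had 395, 746 and 294 FPKM in P33 libraries, against 20696, 15621 and 13682 FPKM in P21 libraries. The difference was -5.21 ± 0.37 (SE; limma, adjusted p = 0.00747), and it was called in 5 of the 6 fits with a library left out, the other giving 0.056 without P21 replicate 2. At the sorted stages it had 87013 to 101680.1 FPKM at P8, 88258 to 97137 FPKM at P10 and 83918 to 110643 FPKM at P13, and in adipocytes at most 0.12 FPKM. It was thus among the most abundant transcripts until P13 and lower at each later stage. Sparc, a collagen-binding matrix protein also chosen after its values were seen, had 186666, 181348 and 124890 FPKM in P33 libraries, against 101177, 114077 and 118046 FPKM in P21 libraries. It took 10.7% to 15.2% of all FPKM in P33 and 9.28% to 10.2% in P21 libraries, and its difference of 0.54 was not called (limma, adjusted p = 0.421).

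Genes of amino acid supply and of secretory transport were among the falls; these lists were written after the calls had been seen, so their counts only describe them. Of 38 tested genes of amino acid synthesis, transport and tRNA charging 9 fell, and the median was -0.44. Cth, among the falls, passed the level filter only through P21. Asns, the asparagine synthetase, had 2.58, 4.25 and 4.39 FPKM in P33 libraries, against 12.9, 13.4 and 14.6 FPKM in P21 libraries. Chac1, a glutathione-degrading enzyme, had 1.48, 1.23 and 1.68 FPKM in P33 libraries, against 8.27, 9.25 and 8.73 FPKM in P21 libraries. It fell by 1.99 ± 0.14 (SE; limma, adjusted p = 0.00747), and its P33 values were all under the lowest P21 value. Mthfd2 of the mitochondrial folate cycle, Pycr1 of proline synthesis and Gpt2, an alanine aminotransferase, fell by 1.37, 1.26 and 1.25. Asns, Mthfd2 and Gpt2 were each called in 2 of the 6 fits with a library left out, and Pycr1 in 1. Of 29 tested genes of transport from the endoplasmic reticulum to the Golgi, Sar1a, Sec22b and Kdelr2 fell, by 0.95, 1.02 and 0.85, with a median of -0.45 over the 29. Of 10 tested tubulins, Tubb4b, Tubb2a and Tuba1c fell, by 1.5, 1.14 and 1.04. The secretory and tubulin calls each held only without P33 replicate 3.

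Several pathways gave 1 call or none. Nqo1, a quinone reductase under NRF2 control, was the only called gene of 17 tested in that list: it averaged 14.2 ± 2.19 FPKM in P33 and 36.1 ± 6.28 FPKM in P21 libraries. Gpx3 of the same list averaged 20.8 FPKM in P33 and 2.12 FPKM in P21 libraries and was not called. Bhlhe41, a clock repressor, rose to 5.49 ± 0.37 FPKM in P33 libraries, against 2.61 ± 0.46 FPKM in P21 libraries, as the only call among 17 tested clock genes; the labels used here give no hour of collection. Ibsp, bone sialoprotein, rose to 2.98 ± 1.12 FPKM in P33 libraries, against 0.41 ± 0.11 FPKM in P21 libraries, and passed the level filter only through P33. Col10a1, the collagen of hypertrophic chondrocytes, averaged 28.2 FPKM in P33 and 32.1 FPKM in P21 libraries and was not called. The glycolytic enzyme Pfkl, the class I molecule H2-K1 and the mRNA decay factor Zfp36 fell by 0.76, 1.04 and 1.06. With 1 library left out, Nqo1, Ibsp, Pfkl, H2-K1 and Zfp36 were called only without P33 replicate 3, and Bhlhe41 in none of the 6 fits. By limma 0 of 21 oxidative phosphorylation genes were called, with 1 at unadjusted p below 0.05. Likewise 0 of 13 proliferation genes were called, with 1 at unadjusted p below 0.05, and 0 of 13 mitochondrially encoded genes, with 0 at unadjusted p below 0.05.

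**Figure D4:**
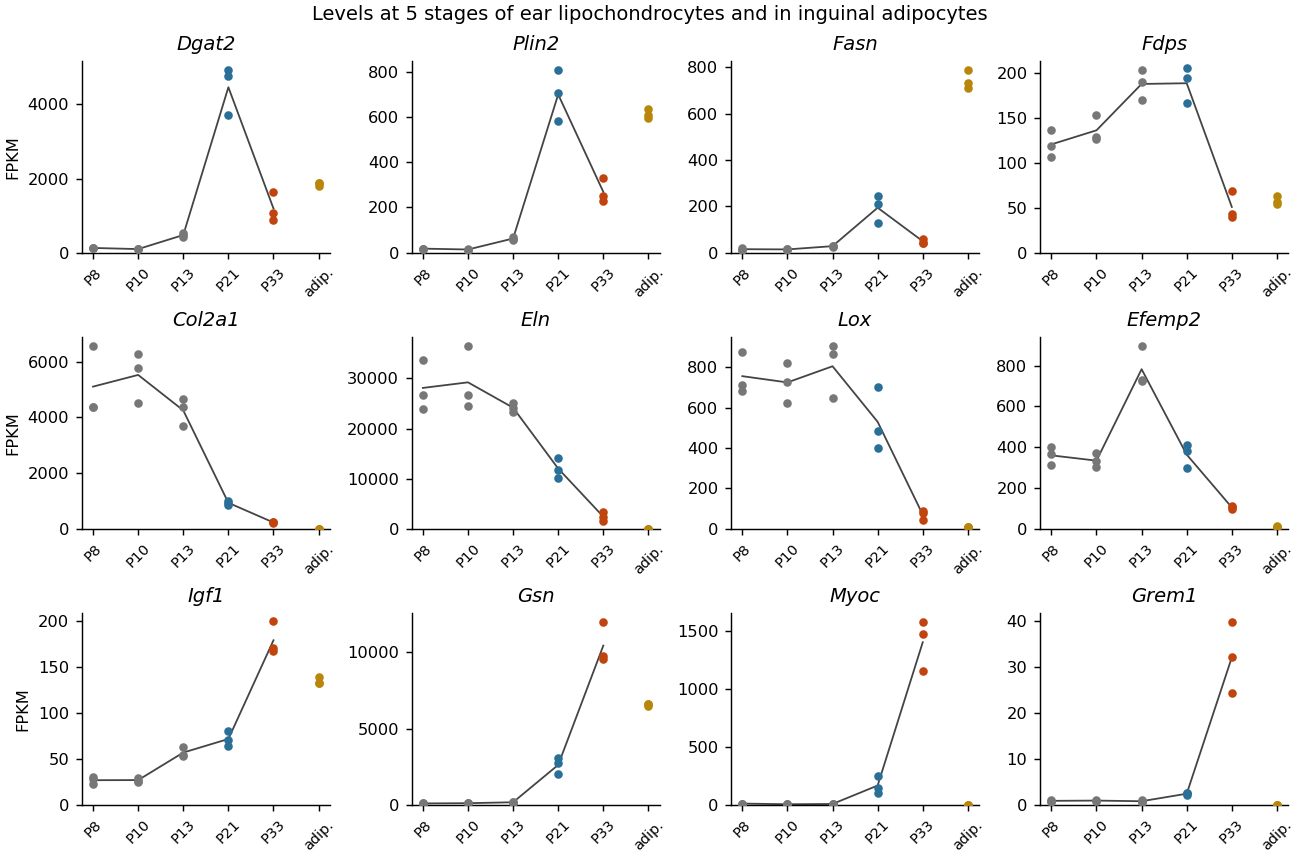
FPKM of 12 genes in ear cells at P8 to P33 and in P33 inguinal adipocytes, with 1 point per library, a line through the stage means and axes that start at 0. Dgat2 peaks at P21 with a mean of 4466 FPKM, Col2a1 declines from P10 on, and Grem1 stays under 3 FPKM until P33.

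Levels at the earlier stages show 3 courses among the called genes. The first peaked at P21. Dgat2 averaged 127, 96.5 and 476 FPKM at P8, P10 and P13, 4466 FPKM at P21 and 1192 FPKM at P33, beside 1851 FPKM in adipocytes. Plin2 averaged 17.8, 13.9 and 62.6 FPKM at P8, P10 and P13, 699 FPKM at P21 and 269 FPKM at P33. The second course fell across the later stages: Col2a1 averaged 5100.5, 5521 and 4247 FPKM at P8, P10 and P13, 929 FPKM at P21 and 223 FPKM at P33. Lox was near 756, 725 and 805 FPKM at P8, P10 and P13, then 529 FPKM at P21 and 69.6 FPKM at P33. The third course was low until P21: Myoc averaged 10.4, 4.35 and 6.80 FPKM at P8, P10 and P13, 166 FPKM at P21 and 1402 FPKM at P33, and 0.16 FPKM in adipocytes. Cells were sorted up to P13 and floated from P21 on, so the step between P13 and P21 carries the change of isolation as well as age.

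P13 against P8 is an earlier pair of stages that shares no library with P33 and P21. There 373 of 10111 genes were called (3.69%), 242 of them higher at P13 (2.39%) and 131 lower (1.3%). Of the 148 genes lower at P33, 128 were tested in the early pair as well, and 33 of these were higher at P13 than at P8, while 0 were lower. The 33 genes are 22.3% of the late falls and 13.6% of the early rises, and include Dgat2, Plin2, Mogat1, Fasn, Pmvk, Tm7sf2, Aacs, Timp1, Efemp2 and Col9a1. Of the 44 genes higher at P33, 26 were tested early, and Gsn, Igf1, Timp3 and Abi3bp were higher at P13 too, with 0 lower. The 2 intervals differ in length and in how the cells were isolated.

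The difference between the late and the early change was tested directly. It was called in 725 of 12106 genes (5.99%). This fit shared the spread of each gene over all 12 libraries. The median SD was 0.245 at P33, against 0.189, 0.162 and 0.192 at P8, P13 and P21. The 725 calls may therefore be less strict than those of P33 against P21. The genes lower late and higher early were chosen for opposite changes, so their differences are given as a description. For Dgat2 the change was -1.94 between P33 and P21 and 1.89 between P13 and P8, a difference of -3.84 ± 0.31 (SE). For Plin2 the changes were -1.38 and 1.75, a difference of -3.14 ± 0.24 (SE). Igf1 rose by 1.31 late and 1.07 early, and its 2 changes were not called different (limma, adjusted p = 0.56). Of the 4 genes higher in both, Gsn alone differed, with 2.01 late and 0.89 early.

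**Figure D5:**
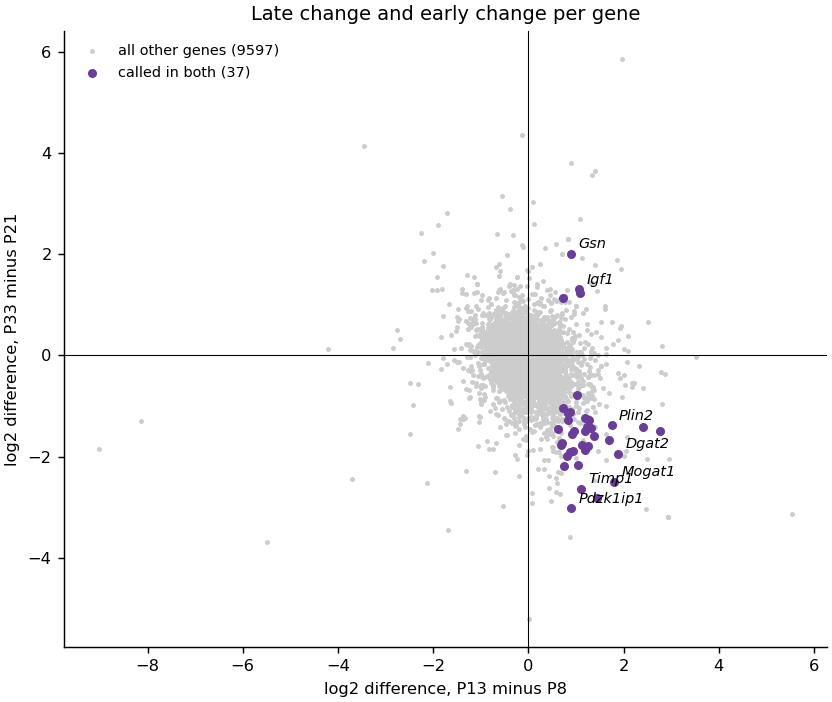
Each of the 9634 genes tested in both pairs is placed by its log2 difference of P13 minus P8 (horizontal) and of P33 minus P21 (vertical), with the 37 genes called in both in purple. Of these, 33 lie at the lower right, as Dgat2 does at 1.89 and -1.94, and 4 at the upper right.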

How the data were processed

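Levels are FPKM as the authors deposited them, to 2 decimals. Alignment was by STAR 2.4.2a against mm10, per the submitters' processing notes. Quantifier, gene annotation and strandedness: not given in the sources used here. Another deposited table gives each library's count of total reads and its alignment rate in percent, per the file headers. FPKM carry no depth per gene, so there are no counting intervals, and a 0 does not show absence.

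Genes at 1 FPKM or more in 3 or more of the 6 P33 and P21 libraries were tested as log2(FPKM + 1), a scale that understates the change of low genes, with limma 3.58.1 in R 4.3.3 (moderated, mean-variance trend, two-sided, Benjamini-Hochberg over all genes tested, called at adjusted p below 0.05). Only these 6 libraries entered the fit, since the median SD of log2 values over P33 libraries was 0.245, against 0.106 to 0.192 over those of the other groups. P13 with P8 was tested the same way in its own 6 libraries. The difference between the 2 changes was tested in a model of 12 libraries that share the spread of each gene. The scripts were tested on simulated data. Of the table's identifiers 98.9% are in GENCODE M21 (GRCm38), the source of coordinates and exon overlaps. Promoter sequences are from RefSeq (GRCm38.p6). List members were matched by symbol, 6 by an older symbol and 723 by the current one.

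The members, the lists and the rule for naming genes were chosen with earlier results of these data known. The rule took, among called genes of standard symbol whose higher stage averaged 10 FPKM or more, the 10 largest rises and 10 largest falls, up to 3 called members per list, and a set of genes of interest. Other genes named, and the lists of amino acid, endoplasmic-reticulum-to-Golgi and tubulin genes, were chosen after their values were seen. Alternatives were another pseudocount (0.1), other filters, median-of-ratios scaling, a fit of all 18 libraries, a replicate block and leaving out each library. Figures used matplotlib 3.10.9 in Python 3.11.15.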

Additional observations from a re-analysis of the deposited data

Results flagged for a closer look

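The change between P33 and P21 differed from that between P13 and P8 in 725 genes. Among the genes named by the rule and called in the early pair, 18 differed in this way. In these, the late change less the early change, on the log2 scale, was -4.31 for Mogat1, -4.26 for Aacs, -3.92 for Pdzk1ip1, -3.84 for Dgat2, -3.77 for Scd1, -3.74 for Timp1 and -3.14 for Plin2. It was -2.90 for Efemp2, -2.84 for Tm7sf2, -2.80 for both Col9a1 and Fasn, -2.61 for G0s2, -2.56 for Nqo1, -2.47 for Pmvk, -2.42 for Cidea and -2.19 for Fxyd3. It was 2.19 for Angptl7 and 1.12 for Gsn. The other 5 such genes were not called different, at 0.25 for Igf1, 0.42 for Timp3, 0.75 for H19, 0.50 for Igf2 and 1.37 for Col1a1. Scd1, G0s2, Cidea, Fxyd3 and Angptl7 were not called between P33 and P21, and Gsn was higher in both pairs. The rest of the 18 were called lower late and higher early. They were thus chosen for opposite changes, and their differences only describe them. Adjusted p for Angptl7 was 0.0481 and for Gsn 0.0268 by limma, in the fit that shared the spread of each gene over 12 libraries.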

How the results depend on the processing

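Calls kept their sign wherever they were measured, 162 of them under the filter of 5 FPKM and all 192 under each other alternative run. P33 and P21 values do not overlap in any of the 192, so only median-of-ratios scaling could have changed a sign. The number of calls did not hold. Against 44 higher and 148 lower, 1 fit of all 18 libraries with a shared spread gave 378 and 998, the same with a variance weight per group 161 and 531, no level filter 11 and 40, and a replicate block 19 and 75. With 1 library left out, higher calls ran from 3 to 145 and lower calls from 1 to 227. A pseudocount of 0.1 gave 40 and 131, a filter of 5 FPKM 39 and 192, and median-of-ratios scaling 48 and 121, within 1.5 times of the counts reported. Replicate numbers pair no samples by the labels. Deviations from the stage means correlated at 0.20, -0.06 and 0.25 between same-numbered libraries, so the block shows only a shared number. The block kept 81 of the 192 calls, and not every library's deviations correlated best with those of its own number. Of 99 named called genes, 98 stayed called with all 18 libraries weighted and Grem1 and Pdzk1ip1 alone in all 6 fits with a library left out. Other settings lost more of the 99: 68 with no level filter, 52 with the replicate block, 14 with median-of-ratios scaling and 7 with pseudocount 0.1. With all 18 libraries in 1 fit, chosen after seeing the data for these comparisons, P13 against P8 gave 388 higher and 218 lower and the late change less the early one 1352. The cause of these shifts was not tested. Depth per gene is unknown, which limits statements on genes near 1 FPKM.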

Other observations

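Of the 44 genes called higher at P33, 10 carry symbols of predicted genes, clones, pseudogenes or small RNAs, as do 8 of the 148 called lower. The share of such symbols among all genes tested was not counted, so these counts only describe the calls. Gm24270, Gm23935 and Gm24245, which were not called, were listed with the same values, 14813, 13981.1 and 0 FPKM in P33 libraries and 15080.4, 0 and 0 FPKM in P21 libraries. Itm2a, a membrane protein of cartilage, averaged 148 ± 23.3 FPKM in P33 and 579 ± 14.7 FPKM in P21 libraries (SD, n = 3 each), and was called. Penk, which encodes the enkephalin precursor, averaged 1028 ± 268 FPKM in P33 and 2943 ± 177 FPKM in P21 libraries, and was called. Trpv4, a calcium channel of chondrocytes, averaged 63.8 ± 16.5 FPKM in P33 and 159 ± 19.6 FPKM in P21 libraries, and was called. S100a6, a calcium-binding protein, averaged 2945 ± 392 FPKM in P33 and 1183 ± 79.3 FPKM in P21 libraries, and was called. These genes were chosen after their values were seen, and Penk, Trpv4 and S100a6 were called only without P33 replicate 3 among the 6 fits with a library left out. Angptl7 and Wfdc2, secreted proteins abundant at both stages, had 1746 to 3451 and 1062 to 3511 FPKM in P33 libraries, against 413 to 1575 and 523 to 1479 FPKM in P21 libraries, and neither was called.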
